A study of Mus musculus with 18 samples.

Results

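Prdm9 and 6 genes tied to the recombination hotspots that its protein marks were followed through mouse spermatogenesis. The 7 genes, Prdm9, Zcwpw1, Hells, Ewsr1, Ehmt2, Cxxc1 and Morc2b, were picked by gene symbol among the 46603 genes of a table of RNA-seq read counts. All 7 stood in the table, and all 7 were among the 18547 genes with enough reads to test. RNA had been sequenced from 18 libraries, 3 from each of 6 germ cell populations sorted from testes of adult mice. No treatment is named. All 6 populations came from mice with the transgenes Stracre-GAG-tdTomato, on a C57BL/6 background by one label and C57BL/5 by another. The cells that the Cre acts in and the gates of the sort are not given, and nothing says whether the 3 replicates came from separate mice. The p-values therefore measure the spread between these libraries, which may be technical.

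The populations are named by their labels, which are not spelled out there. In this field Undiff.Spg and Diff.Spg are read as undifferentiated and differentiating spermatogonia, the mitotic cells. PreL, LZ and PD are read as preleptotene, leptotene with zygotene, and pachytene with diplotene spermatocytes, the cells of meiotic prophase. RS is read as round spermatids, the haploid cells that follow. Levels are CPM, which relate the reads of a gene to the size of its library after scaling by the trimmed mean of M values (TMM). They are given for replicates 1, 2 and 3 in that order and as mean ± SD with n = 3. Changes are log2 fold changes ± SE, and adjusted p-values are from edgeR's quasi-likelihood test with Benjamini-Hochberg adjustment over all tested genes. A gene was called higher or lower at an adjusted p under 0.05.

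In mice, PRDM9 reads DNA with an array of zinc fingers and trimethylates histone H3 at lysines 4 and 36 on the nucleosomes beside its site. SPO11 then cuts DNA at a subset of these sites, and the breaks are repaired on the homologous chromosome with the help of DMC1. ZCWPW1 is a reader of the paired H3K4me3 and H3K36me3 marks and acts in the repair of these breaks. HELLS is a chromatin remodeller that opens hotspots together with PRDM9. EWSR1, an RNA-binding protein of the FET family, EHMT2, the H3K9 methyltransferase G9a, and CXXC1, the CpG-binding subunit of the SETD1 H3K4 methyltransferase complexes, have each been found bound to PRDM9. MORC2B is a germ cell protein of the MORC family of ATPases that is needed for meiosis in mice, and its transcription has been reported to depend on PRDM9.

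Promoter windows are shown for Prdm9, Zcwpw1 and Hells, whose levels all peaked in LZ, and for Morc2b, which was high only where those were low. Each window runs from 250 bases before to 50 after the RefSeq start of the gene on GRCm38.p6, on the strand of the gene. Capitals mark TTCCCGC, an E2F motif, and CCTCAG, the core of the STRA8 and MEIOSIN motif.
Prdm9: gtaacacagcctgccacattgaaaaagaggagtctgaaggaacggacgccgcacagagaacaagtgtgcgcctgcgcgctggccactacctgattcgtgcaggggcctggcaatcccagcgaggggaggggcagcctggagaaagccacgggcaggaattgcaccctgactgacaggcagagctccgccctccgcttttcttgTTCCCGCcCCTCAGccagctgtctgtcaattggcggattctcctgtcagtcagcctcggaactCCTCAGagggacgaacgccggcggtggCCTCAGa
Zcwpw1: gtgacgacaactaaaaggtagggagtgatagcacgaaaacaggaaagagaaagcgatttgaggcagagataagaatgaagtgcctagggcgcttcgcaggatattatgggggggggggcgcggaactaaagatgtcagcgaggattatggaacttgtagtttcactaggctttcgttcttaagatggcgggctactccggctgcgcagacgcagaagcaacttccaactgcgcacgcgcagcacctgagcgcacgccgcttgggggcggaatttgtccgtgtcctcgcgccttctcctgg
Hells: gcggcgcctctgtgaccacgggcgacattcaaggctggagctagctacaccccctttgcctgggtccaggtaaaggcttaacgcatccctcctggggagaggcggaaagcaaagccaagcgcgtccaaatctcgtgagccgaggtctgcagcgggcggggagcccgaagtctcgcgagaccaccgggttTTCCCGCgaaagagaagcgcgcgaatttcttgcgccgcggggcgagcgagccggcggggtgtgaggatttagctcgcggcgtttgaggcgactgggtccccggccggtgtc
Morc2b: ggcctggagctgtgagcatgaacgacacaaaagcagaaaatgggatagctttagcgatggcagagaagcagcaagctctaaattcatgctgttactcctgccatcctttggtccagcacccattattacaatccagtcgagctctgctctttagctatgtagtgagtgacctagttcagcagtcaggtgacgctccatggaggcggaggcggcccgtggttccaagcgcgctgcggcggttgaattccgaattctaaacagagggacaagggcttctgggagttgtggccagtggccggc
The windows lie at chr17:15564305-15564604 on the minus strand for Prdm9, at chr5:137787552-137787851 on the plus strand for Zcwpw1, at chr19:38930740-38931039 on the plus strand for Hells and at chr17:33139634-33139933 on the minus strand for Morc2b. The Prdm9 window held 1 TTCCCGC, from base -47 to base -41 relative to the start, and 3 copies of CCTCAG, from -39 to -34, 17 to 22 and 44 to 49. The Hells window held 1 TTCCCGC from -61 to -55. The RefSeq start of Hells lies 75 bases after its GENCODE start, so that this match is within the gene by GENCODE. For Ewsr1 these starts lie 170 bases apart. Both strands of these windows and of the Ewsr1 and Ehmt2 windows were also searched for TTGGCGC (E2F), AACTGNC (MYB), GTTGCCA (RFX) and TGACGT (CREB and CREM). Among them the only further match was a TTGGCGC on the minus strand of the Ewsr1 window, from -217 to -211. No match overlapped another. Of 32851 mouse promoter windows of this length, TTCCCGC was in 4.6%, CCTCAG in 26.8%, AACTGNC in 12.8%, TGACGT in 7.51%, GTTGCCA in 4.38% and TTGGCGC in 2.45%. A match is a run of letters and no evidence of binding. GC content was 61.7% with 18 CpG in the Prdm9 window, 55% with 23 for Zcwpw1, 65.7% with 34 for Hells and 54% with 13 for Morc2b. The medians of all windows were 52.7% and 7.

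On GRCm38 in GENCODE M21, Prdm9 (ENSMUSG00000051977) spans chromosome 17 from 15543079 to 15564354 on the minus strand with 13 exon blocks and 4308 exon bases. Morc2b (ENSMUSG00000048602) lies on the same chromosome from 33113351 to 33139683, also on the minus strand, with 3 exon blocks. Ehmt2 (ENSMUSG00000013787) is on its plus strand from 34898469 to 34914052 with 24 exon blocks. Zcwpw1 (ENSMUSG00000037108) is on chromosome 5 from 137787798 to 137822621, plus strand. Hells (ENSMUSG00000025001) is on chromosome 19 from 38930915 to 38971051, plus strand. Ewsr1 (ENSMUSG00000009079) is on chromosome 11 from 5069689 to 5099266, minus strand, and Cxxc1 (ENSMUSG00000024560) is on chromosome 18. The strand setting of the read counting is not given. Reads from 468 of 5697 Zcwpw1 exon bases (8.21%), which Pilra covers on the opposite strand, and from 258 of 5907 Ewsr1 exon bases (4.37%), which Rhbdd3 covers, may therefore belong to either gene. Of the 50-base stretches of Ewsr1 transcripts, 12% also occur on the same strand in 3 other genes, Gm6627, Gm7962 and Gm7517. Reads from these stretches may have been dropped or counted for another gene, and their part in the Ewsr1 level was not tested. The share on the same strand was at most 1.06% for the other 6 genes and 0 for Cxxc1 and for Morc2b, which shared no such stretch with its relative Morc2a. On the opposite strand, 7.33% of the Zcwpw1 stretches occur in Pilra and 3.46% of those of Ewsr1 in Rhbdd3.

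Libraries held 11777947 to 16607462 counts. Most marker sums were highest where the label placed them: 8 markers of undifferentiated spermatogonia summed to 1531 to 1715 CPM in Undiff.Spg and to at most 159.8 CPM elsewhere. The 8 early meiosis markers summed to 4683 to 5503 CPM in LZ, the 8 pachytene markers to 4886 to 5420 CPM in PD, and the 8 round spermatid markers to 1959 to 2421 CPM in RS. The 6 Diff.Spg markers summed to 1756 to 1905 CPM in Diff.Spg but also to 1667 to 1871 CPM in PD. That PD sum was nearly all Dmrtb1 (1690, 1659 and 1864 CPM, singled out after its values were seen), and the other 5 were called lower in PD than in Diff.Spg. The sum of all markers of Sertoli, Leydig, peritubular, endothelial and red cells and macrophages was 14.36 to 73.32 CPM per library. Within it, the 8 Sertoli markers summed to 4.34 to 7.43 CPM in PreL, 12.2 to 22.0 CPM in LZ and 0.781 to 1.55 CPM in PD. Of the 7 of them that could be tested, 5 were called higher from PreL to LZ (median 1.61) and 6 lower from LZ to PD. Of all tested genes, 24.3% were higher in the first of these steps and 40.8% lower in the second. Rhox5, Gata4 and Fshr had no read in PD. The part of Sertoli transcripts in the other results was not tested. PreL replicate 2 and LZ replicate 2 stood apart from their groups in pachytene transcripts, with pachytene marker sums of 184.8 and 254 CPM against 64.36 and 81.55 CPM in the other PreL libraries and 123.6 and 152.3 CPM in the other LZ libraries. The round spermatid sum was 4.78, 43.3 and 13.6 CPM in PreL and 96.7, 38.7 and 20.9 CPM in LZ, so that in LZ it was highest in replicate 1. Leaving both out together left the number of the 7 genes called in each direction as it was in all 5 steps between successive populations.

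Prdm9 transcripts rose at each step from spermatogonia to LZ and were almost gone in PD. In Undiff.Spg the level was 0.848, 1.41 and 1.67 CPM (1.31 ± 0.42), and in Diff.Spg it was 12.3, 14.8 and 14.3 CPM (13.8 ± 1.32). PreL libraries had 56.3, 72.3 and 44.3 CPM (57.6 ± 14.1), and LZ libraries had 253, 308 and 350 CPM (303.5 ± 48.6). No library of these 4 populations overlapped with the next. In PD it was 0.915, 0.273 and 0.391 CPM, which are 10, 3 and 4 reads, and in RS it was 1.15, 0.771 and 0.518 CPM, or 11, 7 and 6 reads. All 6 libraries of PD and RS were below every Diff.Spg, PreL and LZ library, and they overlapped with each other.

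The rise of Prdm9 was 3.39 ± 0.29 on the log2 scale from Undiff.Spg to Diff.Spg (10.5-fold, edgeR adjusted p = 8.8e-08). It was 2.06 ± 0.23 from Diff.Spg to PreL (4.18-fold, edgeR adjusted p = 2.51e-06) and 2.40 ± 0.23 from PreL to LZ (5.26-fold, edgeR adjusted p = 3.56e-07). Prdm9 then fell by 9.14 ± 0.35 from LZ to PD (565-fold, edgeR adjusted p = 4.45e-13). RS did not differ from PD past the threshold (0.59 ± 0.49, edgeR adjusted p = 0.331), nor from Undiff.Spg (-0.70 ± 0.40, edgeR adjusted p = 0.108). Against Undiff.Spg it was called lower under total library size (-1.50, adjusted p = 0.00301) and in 7 of the 18 fits that left 1 library out (-1.36 to -0.95, edgeR adjusted p = 0.0097 to 0.0462). PD was lower than Undiff.Spg (-1.29 ± 0.43, edgeR adjusted p = 0.0101). In sorted bulk RNA, fewer cells with the transcript and less RNA per cell cannot be told apart. Without PreL replicate 2 and LZ replicate 2, the step from PreL to LZ was 2.58 ± 0.21 and that from LZ to PD was -9.14 ± 0.29.

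**Figure D1:**
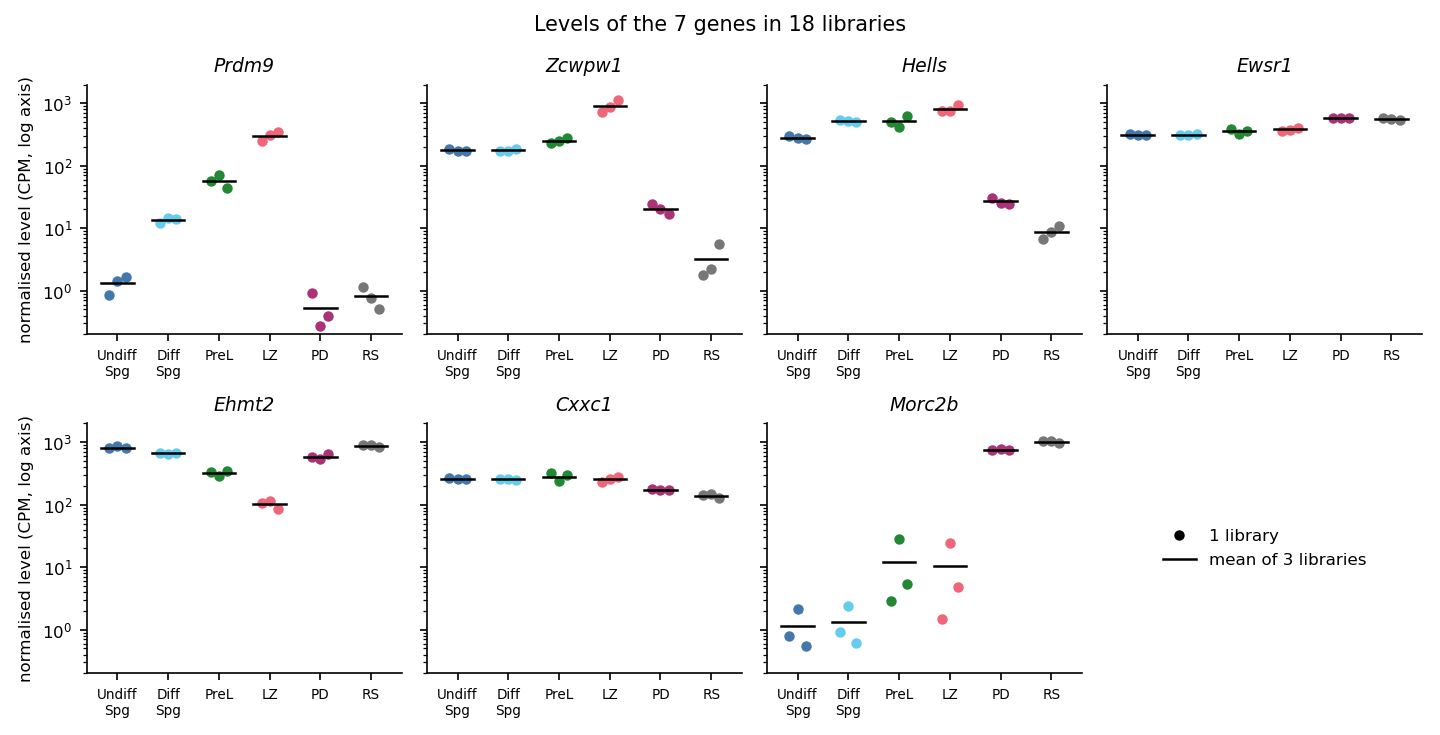
Normalised level (CPM, log axis) of each of the 7 genes in the 18 libraries, 3 per population. Points are libraries and bars are means: Prdm9 climbs from 1.31 CPM in Undiff.Spg to 303.5 in LZ and drops to 0.526 in PD, Zcwpw1 and Hells also peak in LZ, Ehmt2 is lowest in LZ, and Morc2b reaches 761 CPM in PD and 1020 CPM in RS.

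Zcwpw1, which encodes the reader of the marks, was abundant before Prdm9 and peaked with it. Its level was 185, 173.6 and 173.6 CPM in Undiff.Spg, 170.5, 171 and 186 CPM in Diff.Spg and 231, 249 and 277 CPM in PreL. It was 714, 877 and 1116 CPM in LZ, then 24.6, 20.3 and 17.1 CPM in PD and 1.77, 2.20 and 5.52 CPM in RS. The spermatogonial groups overlapped with each other, every PreL library was above them and every LZ library was above PreL. Zcwpw1 was called higher only in the step from PreL to LZ (1.84 ± 0.26, 3.58-fold, edgeR adjusted p = 1.68e-05). The step from Diff.Spg to PreL missed the threshold at 0.52 ± 0.25 (edgeR adjusted p = 0.101), and passed it when those groups were fitted alone (0.56, adjusted p = 0.00274) and without RS replicate 3 (0.52, adjusted p = 0.0105). The fall was 5.45 ± 0.30 from LZ to PD (43.6-fold, edgeR adjusted p = 3.86e-11), followed by a further fall of 2.67 ± 0.29 to RS (6.38-fold, edgeR adjusted p = 7.08e-07).

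Hells, the remodeller, was already abundant in spermatogonia and covered the smallest rise of the 3 genes that peaked in LZ. Undiff.Spg libraries had 295, 275 and 269 CPM, Diff.Spg 547, 513 and 501 CPM, and PreL 507, 422 and 632 CPM. LZ libraries had 757, 750 and 946 CPM, PD 30.7, 25.5 and 24.7 CPM, and RS 6.67, 8.70 and 10.7 CPM. Diff.Spg and PreL libraries were intermixed, while LZ stood above every other library and RS below every other. Hells rose by 0.90 ± 0.16 into Diff.Spg (1.86-fold, edgeR adjusted p = 0.000296), stood at 0.00 ± 0.16 from Diff.Spg to PreL (95% interval -0.34 to 0.35, edgeR adjusted p = 1) and rose by 0.65 ± 0.16 into LZ (1.57-fold, edgeR adjusted p = 0.00323). The rise into LZ missed the threshold without LZ replicate 3 (0.46, adjusted p = 0.0513). The fall into PD was 4.92 ± 0.19 (30.3-fold, edgeR adjusted p = 5.74e-13), and that from PD to RS was 1.63 ± 0.18 (3.09-fold, edgeR adjusted p = 5.98e-07).

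Ehmt2, the G9a gene, ran the other way: it was lowest in LZ, where Prdm9 was highest. Its level was 800.4, 860 and 807 CPM in Undiff.Spg, 684, 650 and 679 CPM in Diff.Spg and 340.1, 286 and 341 CPM in PreL. LZ libraries had 105.5, 116 and 86.5 CPM, PD libraries 584, 542 and 646 CPM and RS libraries 919.9, 898 and 846 CPM. Each population down to LZ was below the one before it in every library, and every PD library was above every LZ and PreL library. The falls were 1.06 ± 0.11 into PreL (2.08-fold, edgeR adjusted p = 1.67e-06) and 1.65 ± 0.12 into LZ (3.13-fold, edgeR adjusted p = 2.34e-08). Ehmt2 rose by 2.52 ± 0.12 from LZ to PD (5.74-fold, edgeR adjusted p = 5.58e-12) and by 0.59 ± 0.11 from PD to RS (1.50-fold, edgeR adjusted p = 0.000258). The first step, a fall of 0.29 ± 0.11 from Undiff.Spg to Diff.Spg (edgeR adjusted p = 0.0459), did not pass with replicate number as a block (-0.29, adjusted p = 0.066), under total library size, with no low-count filter or without any of the 6 libraries of those groups in turn. RS and Undiff.Spg did not differ past the threshold (0.11 ± 0.11, edgeR adjusted p = 0.363), and this comparison turned on the scaling. RS was called higher with RLE scaling (0.31, adjusted p = 0.017) and DESeq2 (0.31, adjusted p = 0.0127) and lower under total library size (-0.70, adjusted p = 1.33e-05).

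Ewsr1 and Cxxc1, whose proteins bind PRDM9, changed least of the 7, by 1.86-fold and 2.02-fold between their highest and lowest populations. Under total library size these spans were 1.24-fold and 3.55-fold, and the next smallest was that of Ehmt2 (8.64-fold, or 9.10-fold under total library size). Ewsr1 libraries ran from 310.4 to 317 CPM in Undiff.Spg, 312 to 319 CPM in Diff.Spg, 319 to 388 CPM in PreL and 366 to 409.6 CPM in LZ. They ran from 578 to 589.5 CPM in PD and 538 to 577 CPM in RS, above every earlier library. No step before PD passed the threshold (largest 0.17 ± 0.09, Diff.Spg to PreL, edgeR adjusted p = 0.144). Across several steps, Ewsr1 in LZ was called above Undiff.Spg (0.30 ± 0.09, edgeR adjusted p = 0.00776) and Diff.Spg (0.29 ± 0.09, edgeR adjusted p = 0.0105). Both calls were lost under total library size (0.105 and 0.0436) and without LZ replicate 3 (0.169 and 0.167). They were also lost with no low-count filter and without PD replicate 1, 2 or 3 or RS replicate 1 or 2 in turn. The call against Diff.Spg was also lost without RS replicate 3. From LZ to PD the change was 0.60 ± 0.09 (1.52-fold, edgeR adjusted p = 1.07e-05). With total library size in place of TMM this step was 0.20 (adjusted p = 0.00961), the step from PD to RS was -0.28 (adjusted p = 0.00152) in place of -0.06 ± 0.09 (adjusted p = 0.583), and RS was no longer above LZ.

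Cxxc1 libraries ran from 256 to 272 CPM in Undiff.Spg, 248 to 259 CPM in Diff.Spg, 237.5 to 317 CPM in PreL and 233 to 277.5 CPM in LZ. These 4 populations overlapped, and no step between them passed the threshold (edgeR adjusted p = 0.799, 0.261 and 0.312). PD libraries had 178, 170 and 175 CPM and RS libraries 144, 148 and 129 CPM, each group below all before it. The fall was 0.55 ± 0.11 into PD (1.47-fold, edgeR adjusted p = 0.000233) and 0.31 ± 0.11 into RS (1.24-fold, edgeR adjusted p = 0.0233). The second of these did not pass with RLE scaling (-0.15, adjusted p = 0.284) or DESeq2 (-0.15, adjusted p = 0.294), and under total library size the step from PreL to LZ was called lower (-0.35, adjusted p = 0.00101).

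Morc2b was the one gene of the 7 that was high only in PD and RS, where Prdm9 was almost gone. It stood at 0.783, 2.15 and 0.557 CPM in Undiff.Spg and 0.912, 2.43 and 0.623 CPM in Diff.Spg. In PreL the libraries had 2.90, 28.3 and 5.43 CPM and in LZ 1.46, 24.8 and 4.77 CPM, so that replicate 2 of each was far above the other libraries. PD libraries had 762, 776 and 745.5 CPM and RS libraries 1044, 1037 and 978 CPM, all above every earlier library. The rise from LZ to PD was 6.19 ± 0.95 (73.2-fold, edgeR adjusted p = 1.25e-05), and 7.91 ± 0.43 (adjusted p = 5.55e-13) without PreL replicate 2 and LZ replicate 2. RS was above PD in all 3 libraries, but the difference missed the threshold (0.42 ± 0.75, edgeR adjusted p = 0.668); fitted alone, these groups differed (0.38 ± 0.06, adjusted p = 0.000214).

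Within each population before PD, spermatogonia included, Morc2b and the pachytene marker sum were both highest in replicate 2. Morc2b had 32 reads in Undiff.Spg replicate 2 against 12 and 8 in the others, and 45 in Diff.Spg replicate 2 against 13 and 10. The pachytene sum in Undiff.Spg was 106.8 CPM in replicate 2 against 94.5 and 90.1 CPM. In Diff.Spg it was 71.4 CPM against 61.55 and 63.4 CPM. The round spermatid sum was highest in replicate 2 in PreL, in replicate 1 in Undiff.Spg and LZ and in replicate 3 in Diff.Spg. Morc2b in PreL replicate 2 and LZ replicate 2 was 3.18% and 2.78% of the mean of the PD and RS libraries, against 0.062% to 0.61% in the other 10 earlier libraries. The pachytene marker sum was 4.10% and 5.64% of its PD and RS mean in those libraries, against 1.37% to 3.38% in the others. The round spermatid sum was 3.36% and 3.00%, against 0.37% to 7.50%, with the highest value in LZ replicate 1, where Morc2b was 0.164%. The part of these late transcripts in the Morc2b values was not tested. The call of Morc2b as higher in PreL than in Diff.Spg (3.17 ± 0.92, edgeR adjusted p = 0.0101) was lost without PreL replicate 2 (1.58 ± 0.83, adjusted p = 0.144). Without both replicates 2 it was 1.56 ± 0.46 (adjusted p = 0.0091). From PreL to LZ the change was -0.24 ± 0.79 (adjusted p = 0.855), and -1.98 ± 0.77 (adjusted p = 0.0466) without LZ replicate 2.

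**Figure D2:**
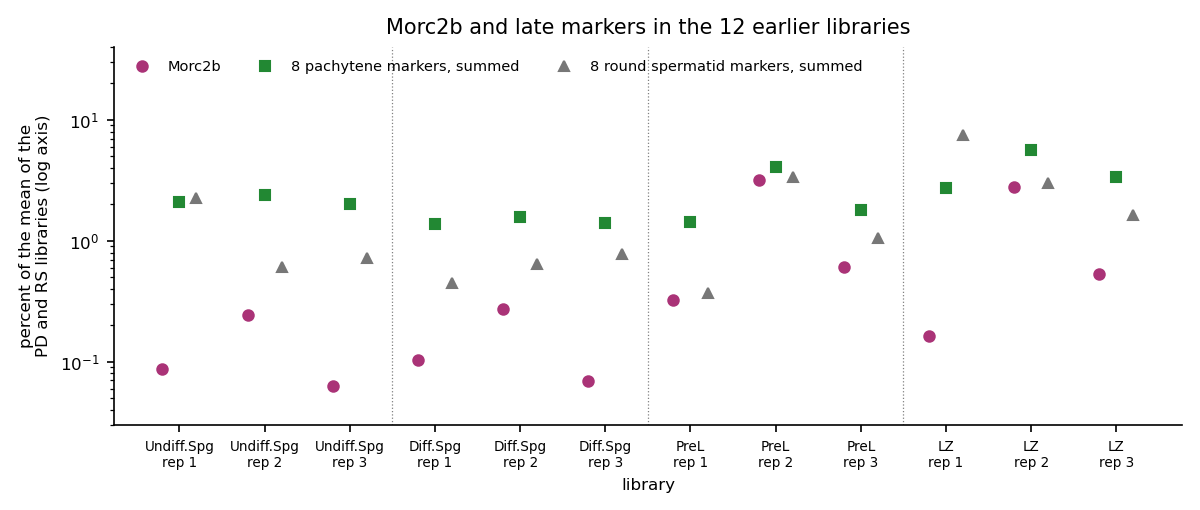
Morc2b and the summed levels of 8 pachytene and 8 round spermatid markers in each of the 12 libraries before PD, as percent of the mean of the PD and RS libraries (log axis). Morc2b stands at 3.18% in PreL replicate 2 and 2.78% in LZ replicate 2 and at most 0.61% in the other libraries, and the pachytene sum is also highest in those libraries.

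The number of the 7 genes that changed is read against the background, since much of the transcriptome changed at each step. From Undiff.Spg to Diff.Spg, 2 of the 7 were higher (Prdm9 and Hells), 1 was lower (Ehmt2) and 4 were not called, where 43.5% of the 18547 tested genes were called, 20.4% higher and 23% lower. From Diff.Spg to PreL, 2 were higher (Prdm9 and Morc2b), 1 lower (Ehmt2) and 4 not called, against 45.2% of all genes, 20.4% higher and 24.8% lower. From PreL to LZ, 3 were higher (Prdm9, Zcwpw1 and Hells), 1 lower (Ehmt2) and 3 not called, against 47.5%, 24.3% higher and 23.2% lower. Over all genes that step had 4516 calls higher and 4302 lower, and 3594 and 5401 under total library size.

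The step from LZ to PD was the one in which all 7 genes were called, 3 higher (Ewsr1, Ehmt2 and Morc2b) and 4 lower (Prdm9, Zcwpw1, Hells and Cxxc1), and 82.9% of all tested genes were called there, 42.1% higher and 40.8% lower. From PD to RS, 1 was higher (Ehmt2), 3 were lower (Zcwpw1, Hells and Cxxc1) and 3 were not called, against 58.9%, 30.3% higher and 28.6% lower. The shares of the 7 that were called stood close to these backgrounds and are no result about these genes, whose sizes and directions of change carry the description. The median log2 fold change of the 7 over the 5 steps in order was 0.01, 0.17, 0.12, -0.55 and -0.06, beside medians over all tested genes of 0.00, 0.02, 0.00, 0.00 and 0.00. Total library size moved the median of all genes by -0.20 from PreL to LZ, by -0.35 from LZ to PD and by -0.14 from PD to RS relative to TMM, and RLE moved it by 0.14 from PD to RS. Changes of a size near these shifts, those of Ewsr1 and Cxxc1 among them, depend on the scaling.

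**Figure D3:**
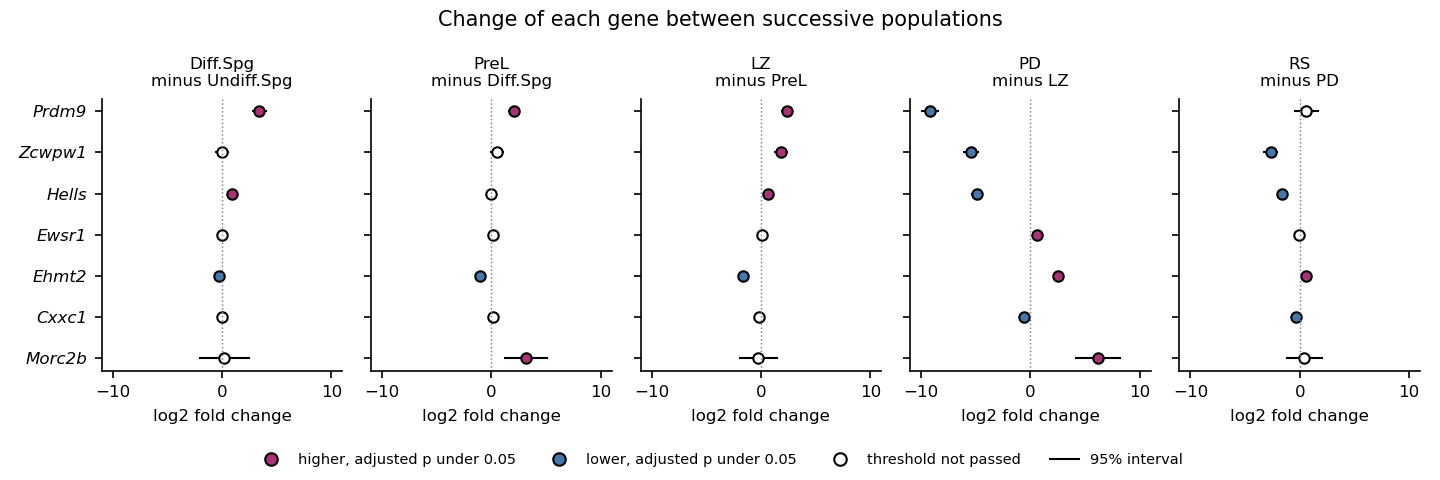
Log2 fold change of each of the 7 genes in the 5 steps from one population to the next, with 95% intervals from the edgeR fit. Filled points passed an adjusted p of 0.05: the step from LZ to PD has all 7 filled, from -9.14 for Prdm9 to 6.19 for Morc2b, and the steps before it have 3 or 4.

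Per kilobase of exon, the ranking of the 7 genes changed along the series. In Undiff.Spg, Ehmt2 led with 149.8 ± 5.91 CPM per kb, followed by Cxxc1 at 66.8 ± 2.20, Ewsr1 at 53.0 ± 0.63, Hells at 38.8 ± 1.86 and Zcwpw1 at 31.1 ± 1.16, while Prdm9 was at 0.304 ± 0.0975. In LZ, Zcwpw1 led with 158 ± 35.5 CPM per kb, Hells had 113.5 ± 15.4 and Prdm9 70.5 ± 11.3, close to Ewsr1 at 65.2 ± 3.77 and Cxxc1 at 65.2 ± 5.65. Ehmt2 had 18.7 ± 2.77 there. Prdm9 was 14.3% of the summed level per kb of the 7 in LZ, 4.14% in PreL and 0.0291% in PD. In PD and RS, Morc2b led with 162 ± 3.24 and 217 ± 7.65 CPM per kb, ahead of Ehmt2 at 108 ± 9.49 and 162 ± 6.93.

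Across the 18 libraries, Pearson's r of log2 CPM was 0.974 between Zcwpw1 and Hells, 0.789 between Prdm9 and Zcwpw1, 0.791 between Prdm9 and Hells and -0.867 between Prdm9 and Ehmt2. These values describe 18 libraries in 6 clusters, and the libraries share the scaling, so no test is given. Among 11407 named protein-coding genes, the pattern most like that of Prdm9 was that of Mei1 (r = 0.994 over 18 libraries), a gene needed for meiotic breaks, at 16.9 CPM in Undiff.Spg, 309 in LZ and 11.7 in PD. Next were the testis protease gene Prss50 (r = 0.988), Setdb2, a gene of the H3K9 methyltransferase class (r = 0.987), the sulfotransferase gene Gal3st1 (r = 0.986) and Haus2, which encodes an augmin subunit (r = 0.985). For Hells they were the transporter gene Slc16a1 (r = 0.997), the replicative ligase gene Lig1 (r = 0.996) and Hes6 (r = 0.996), and for Zcwpw1 they were Timm29, Parp12 and Bicdl1 (r = 0.995, 0.993 and 0.993). Ehmt2 was most like Kctd10, Sidt2 and Nav2 (r = 0.991, 0.988 and 0.983), Ewsr1 like Selenos, Tbp and Thoc5 (0.989 each) and Cxxc1 like Hspa8, Sfpq and Arhgdia (0.976, 0.974 and 0.973). Morc2b was most like Prdx6b, March11 and Pabpc2 (r = 0.999 each), which stood at 991, 1126 and 1882 CPM in PD.

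Relatives of the 7 genes often took another course. Ehmt1 encodes GLP, the usual partner of G9a, and was lowest where Ehmt2 was high again. Its level was 127, 130.0 and 127 CPM in LZ and 1.01, 0.910 and 0.781 CPM in PD. Ehmt1 fell by 7.13 ± 0.22 from LZ to PD (edgeR adjusted p = 6.12e-14), the step in which Ehmt2 rose 5.74-fold. Of the 4 tested genes of the G9a and GLP complex other than Ehmt2, 3 were called higher and 0 lower from Undiff.Spg to Diff.Spg, 0 higher and 3 lower from PreL to LZ, and 0 higher and 3 lower from LZ to PD. Of all tested genes, 20.4% were higher and 23% lower in the first of these steps, 24.3% and 23.2% in the second and 42.1% and 40.8% in the third. Over the alternatives tried, the 3 lower from PreL to LZ ranged from 1 to 4. Cdyl, which encodes a chromodomain cofactor, rose by 2.94 ± 0.19 from PD to RS (edgeR adjusted p = 1.89e-09).

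Morc2a, the broadly expressed relative of Morc2b, peaked in LZ at 367.5, 530 and 498 CPM after 215, 216 and 161 CPM in PreL, a rise of 1.24 ± 0.15 (edgeR adjusted p = 4.68e-06). It fell by 1.58 ± 0.15 into PD (edgeR adjusted p = 5.34e-08), to 155 ± 4.31 CPM, the step in which Morc2b rose. Zcwpw2, the other CW and PWWP domain gene, peaked in LZ as Zcwpw1 did, at 17.6, 28.2 and 33.7 CPM after 3.81, 3.02 and 2.93 CPM in PreL. This was a rise of 3.02 ± 0.22 (edgeR adjusted p = 3.35e-08), followed by a fall of 2.79 ± 0.23 into PD (edgeR adjusted p = 5.43e-09). Over the 6 listed MORC, FET and CW-PWWP relatives, 3 were called higher and 2 lower from PreL to LZ, and 1 higher and 4 lower from LZ to PD, where 47.5% and 82.9% of all tested genes were called in either direction. With 5 of 6 called in each step, no pattern of the list is read from these counts.

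**Figure D4:**
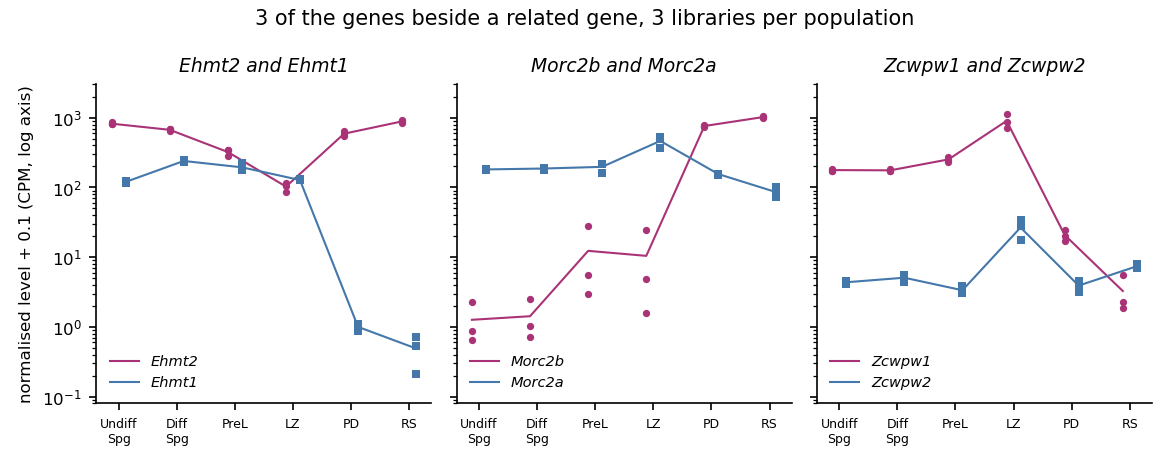
Levels (CPM plus 0.1, log axis) of Ehmt2, Morc2b and Zcwpw1, each beside a related gene, in the 3 libraries of each population, with lines through the means. From LZ to PD Ehmt2 goes from 103 to 591 CPM while Ehmt1 goes from 128 to 0.899, Morc2b rises while Morc2a falls, and Zcwpw1 and Zcwpw2 both drop.

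Of 4 listed partners of HELLS, 3 fell from PreL to LZ, the step in which Hells rose and in which 23.2% of all tested genes were lower. CDCA7 targets HELLS to chromatin, and Cdca7 fell by 2.07 ± 0.18 from PreL to LZ (129.6 ± 27.3 to 30.9 ± 6.21 CPM, edgeR adjusted p = 3.87e-07), the step in which Hells rose 1.57-fold. It was 0.366, 0.182 and 0.0977 CPM in PD and had no read in RS. Dnmt3b, a de novo DNA methyltransferase gene, fell by 2.15 ± 0.19 from Diff.Spg to PreL and by 3.09 ± 0.21 from PreL to LZ (edgeR adjusted p = 2.34e-07 and 1.69e-08). The partner that rose from PreL to LZ was the zinc finger gene Zbtb24 (0.68 ± 0.13, edgeR adjusted p = 0.000277).

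In the SETD1 complexes that CXXC1 belongs to, the catalytic subunit genes moved apart. Setd1a rose by 0.95 ± 0.18 from PreL to LZ (edgeR adjusted p = 0.000286) and fell by 3.34 ± 0.19 into PD (edgeR adjusted p = 6.49e-11), to 34.1 CPM. Setd1b was at 8.39 ± 4.59 CPM in LZ and rose by 4.71 ± 0.40 into PD (edgeR adjusted p = 9.69e-09), to 220.6 ± 27.6 CPM. Unlike Morc2b, it had also been at 42.4% of its PD mean in Undiff.Spg, before 4.82% in Diff.Spg. Like Morc2b, Setd1b was highest within LZ and within PreL in replicate 2 (13.6 and 10.1 CPM). Hcfc1, an X-linked subunit gene, went from 498 ± 30.1 CPM in LZ to 2.27 ± 0.156 CPM in PD. Of the 8 tested subunit genes other than Cxxc1, 1 was higher and 3 lower from PreL to LZ, and 3 higher and 5 lower from LZ to PD. The background was 24.3% higher and 23.2% lower, then 42.1% and 40.8%, and nothing particular to the list is read from these counts.

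Among the other enzymes that write or erase H3K4me3 and H3K36me3, 5 of 11 were called higher and 0 lower from PreL to LZ, and 1 higher and 9 lower from LZ to PD. Of all tested genes 24.3% were higher and 23.2% lower in the first of these steps, and 42.1% and 40.8% in the second. The 5 called higher ranged from 1 to 6 over the alternatives tried. The H3K4 demethylase gene Kdm5a reached 587, 656 and 729 CPM in LZ, a rise of 1.01 ± 0.16 (edgeR adjusted p = 4.93e-05), and fell by 3.49 ± 0.17 into PD (edgeR adjusted p = 8.97e-12). Kmt2a, an H3K4 methyltransferase gene, fell by 6.29 ± 0.30 from LZ to PD (335 to 4.26 CPM, edgeR adjusted p = 5.82e-12), and Kdm5b rose by 1.01 ± 0.12 in that step (edgeR adjusted p = 5.15e-07). Of the 14 other PRDM genes listed, 11 could be tested, and LZ was the group with the highest mean for none of them. From PreL to LZ, 1 was higher (Prdm4, 0.65) and 4 were lower, against 24.3% and 23.2% of all tested genes. Prdm8 was at most 0.916 CPM in LZ libraries and at 33.0, 33.3 and 41.6 CPM in PD, a rise of 6.11 ± 0.45 (edgeR adjusted p = 1.39e-09).

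Genes of break formation, strand exchange and the meiotic chromosome axis mostly peaked with Prdm9. Of 7 tested break formation genes, 6 were higher and 0 lower from PreL to LZ, and 1 was higher and 6 were lower from LZ to PD. Of 7 strand exchange genes the counts were 7 and 0, then 1 and 5, and of 8 genes of the meiotic chromosome axis 7 and 0, then 0 and 8. Of all tested genes 24.3% were higher and 23.2% lower from PreL to LZ, and 42.1% and 40.8% from LZ to PD. The 7 strand exchange genes called higher from PreL to LZ were 6 with the replicate block, without Psmc3ip (0.35, adjusted p = 0.0561 in place of 0.0413), and ranged from 5 to 7 over the alternatives tried. The median change of these lists was 2.04, 2.65 and 1.98 from PreL to LZ and -4.69, -2.07 and -2.45 from LZ to PD, beside 0.00 for all tested genes in both steps. These lists overlap with the early meiosis markers, and some of their genes were among results already seen in these data.

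Dmc1, the meiotic recombinase gene, had the same outline as Prdm9, with 438, 526 and 649 CPM in LZ and 0.732, 0.364 and 1.46 CPM in PD, a fall of 9.30 ± 0.34 (edgeR adjusted p = 2.61e-13). Mei4, a gene of the break machinery, fell by 9.42 ± 0.42 in that step (edgeR adjusted p = 2.12e-11), and the meiotic cohesin gene Rad21l by 12.28 ± 0.50 (edgeR adjusted p = 9.55e-13). Their PD means were 0.118% and 0.0153% of LZ means of 27.47 and 199.8 CPM. These PD levels are at the floor of the counts, so the sizes of both falls are not well measured. Spo11 encodes the enzyme that makes the breaks. In these counts, which do not separate the transcript forms of a gene, Spo11 did not peak with Prdm9. It was at 43.0, 45.2 and 56.3 CPM in LZ and at 123, 127 and 120.5 CPM in PD, a further rise of 1.36 ± 0.25 (edgeR adjusted p = 9.56e-05) in the step in which Prdm9 fell 565-fold. Psmc3ip, which encodes the HOP2 partner of DMC1, also rose into PD, by 2.04 ± 0.14 (edgeR adjusted p = 4.62e-10). Before PreL, Prdm9 was at 13.8 CPM in Diff.Spg, or 4.54% of its LZ mean, where Dmc1 was at 6.86%, Meiob at 0.737% and Mei1 at 21.3% of theirs. Among the tested genes of these lists, only Spo11 (2.79%), Meiob and Rad21l (2.47%) had a lower share of their highest mean there. The others ranged from 5.5% (Sycp2) to 84.6% (Rec114).

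**Figure D5:**
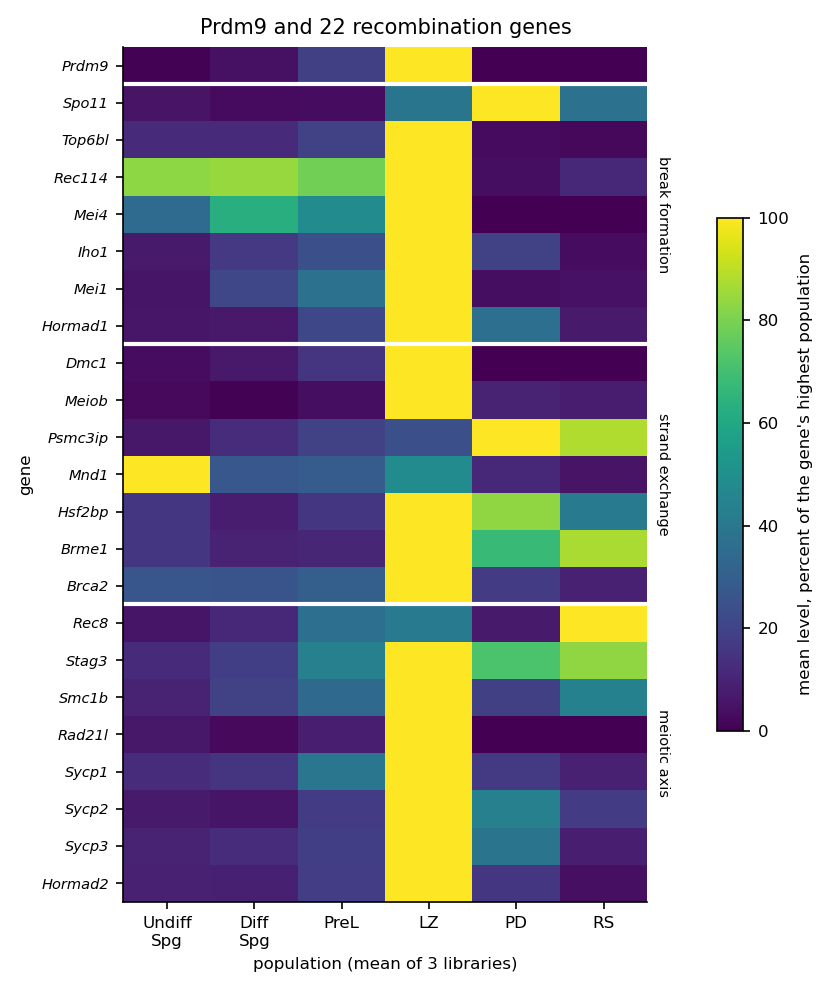
Mean level of Prdm9 and of 22 break formation, strand exchange and meiotic axis genes in each population (3 libraries each), as percent of the gene's highest population mean. The LZ column is the brightest for Prdm9, 6 of 7 break formation, 5 of 7 strand exchange and 7 of 8 axis genes, and Spo11 and Psmc3ip are brightest in PD.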

How the data were processed

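The authors deposited raw read counts for each gene and library. The build GRCm38 and the tools STAR 2.4.2a, cutadapt, HTSeq and DESeq2 are named, per the submitters' processing notes, without roles, and how strand was handled, which annotation was used and what was filtered is not given in the sources. Per the labels' protocols, reads were single and came from an Illumina HiSeq instrument. No molecular identifiers are named, so copies made by PCR count as reads. Of 46603 gene IDs, 46091 (98.9%) were found in GENCODE M21.

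Genes were kept by filterByExpr, which left 18547, and the model, run in R 4.3.3 with edgeR 4.0.16 on TMM-scaled totals, had 1 term for each of 6 groups (glmQLFit and glmQLFTest, 2-sided, Benjamini-Hochberg within each of 15 pairs of groups). Standard errors were taken as the size of the log2 fold change divided by the root of F. The common biological coefficient of variation was 0.2025. Totals of 11777947 to 16607462 counts set the precision of low levels, such as Prdm9 in PD. No 2 replicates were copies of each other, since pairs differed by 2.38 to 47.3 times the counting variance.

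Replicate numbers were checked for pairing by correlating deviations from group means. Same numbers correlated at 0.121 to 0.445 between Diff.Spg and PreL and at 0.254 to 0.683 between PreL and LZ. This was over 0.1 in every pair, and a fit with replicate number as a block was run beside the main model, which had no such term. Deviations cancel out within a group, so 1 unlike library of the same number in both groups also gives such values. The check therefore cannot show pairing. Some different numbers correlated as well, PreL 1 with Diff.Spg 3 at 0.193 and LZ 3 with PreL 1 at 0.286. In these steps replicate 2 correlated negatively with every other number, so that replicates 1 and 3 are not shown to be paired by number. The labels do not say what the numbers stand for. A fit with the block changed no call of the 7 genes in those steps. It made Setd1b lower from Diff.Spg to PreL (-0.96, adjusted p = 0.045), and Zcwpw2 there (-0.60, adjusted p = 0.0556) and Psmc3ip from PreL to LZ (0.35, adjusted p = 0.0561) were no longer called.

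The members and lists were chosen with earlier results of these data known. Genes of the pathway lists are named by the size of their change among called genes or by level, up to 4 per list, and patterns most like a member by Pearson's r of log2 CPM (prior count 2) among named protein-coding genes with at least 10 CPM in the highest group. Ankrd31 and Spata22 were not analysed here, and some other genes of these pathways are not reported here. Alternatives were RLE scaling, total library size, other low-count filters, the replicate block, each library left out, PreL replicate 2 and LZ replicate 2 left out together, each pair of groups alone, a 2-fold condition and DESeq2 1.42.0. Sequences are from RefSeq, and protein sequences were not used here. The limma package (3.58.1) was loaded by edgeR.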

Additional observations from a re-analysis of the deposited data

How the results depend on the processing

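Counts of the 7 genes called in each direction stayed within 1.5 times of the values above under the alternatives tried, except as follows. From Undiff.Spg to Diff.Spg, the 1 gene called lower (Ehmt2) was 0 under total library size, with no low-count filter, with the replicate block and with a 2-fold condition, and ranged from 0 to 1 with each library left out, and the 2 genes called higher became 1 with the 2-fold condition. From Diff.Spg to PreL, the 2 called higher ranged from 1 to 3 with each library left out. From PreL to LZ, those called higher ranged from 2 to 3 and those called lower from 1 to 2 with each library left out, and 2 were lower under total library size (Ehmt2 and Cxxc1). From PD to RS, the 1 gene called higher became 2 with the pair fitted alone and 0 with the 2-fold condition.

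Some pairs of populations changed direction. Under total library size Ewsr1 in RS was -0.032 against Diff.Spg, -0.16 against PreL and -0.076 against LZ, Ehmt2 in RS was -0.70 against Undiff.Spg and -0.45 against Diff.Spg, Cxxc1 in LZ was -0.24 against Diff.Spg, and Morc3 in PD was -0.014 against LZ. With each library left out, Ehmt2 in RS against Undiff.Spg ranged from -0.25 to 0.13 and was called lower without LZ replicate 3 (-0.23), while it was called higher with RLE scaling (0.31, adjusted p = 0.017) and DESeq2 (0.31, adjusted p = 0.0127). Prdm9 in RS was called lower than in Undiff.Spg under total library size (-1.50) and in 7 of 18 fits with each library left out. Ehmt2 was called higher in RS than in Diff.Spg in the main fit (0.40, edgeR adjusted p = 0.0032). That call was lost without LZ replicate 3 and without any PD or RS replicate in turn (0.054 to 0.113). In each fit that left a library out, the low-count filter and TMM factors were computed anew from the libraries kept. Apart from the construction of these scalings, the cause was not tested.

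The replicate block changed no other call of the 7 genes in the 5 steps than that of Ehmt2 from Undiff.Spg to Diff.Spg (-0.29, adjusted p = 0.066), between groups whose same-numbered libraries correlated at 0.0199 to 0.251. Over the 7 genes, 5 steps and all alternatives but the 2-fold condition, 888 values kept direction and side of the threshold. Of the rest, 15 lost a call and 6 gained one. The 2-fold condition, which would remove further calls, is not in this tally. Depth limits Prdm9 in PD and RS, where it rests on 3 to 11 reads per library.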
